A study of Mus musculus with 4 samples.

Results

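Mature oligodendrocytes, the myelin-forming cells of the brain, were picked out of single-nucleus RNA sequencing of mouse cortex by 13 genes. Molecule tags (UMIs, unique molecular identifiers) of Mog, Mag, Mobp, St18, Prr5l and Aspa had to sum to at least 8 in a nucleus. Those of the neuron genes Slc17a7, Gad1 and Gad2 could sum to at most 1, those of the astrocyte genes Slc1a3, Aqp4 and Gja1 to at most 3, and Pdgfra, the marker of oligodendrocyte precursors, had to be at 0. Among 26350 nuclei with at least 500 detected genes and at most 5% mitochondrial UMIs, 1806 met the rule. The study set 2 females at E13.5 of pregnancy, from timed matings, against 2 non-pregnant females, with 1 library from each animal. All 4 were wildtype C57BL/6JRj mice of about 12 weeks. Nuclei were taken from microdissected cortex in buffers with actinomycin D, a blocker of transcription, and the cortical area is not stated in the labels. The design text calls the 2 animals of each group biological replicates.

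Oligodendrocytes wrap axons in sheets of membrane held together by proteins such as MBP, and they make large amounts of cholesterol and of the lipids galactosylceramide and sulfatide for it. They arise throughout adult life from precursors that carry Pdgfra, by way of a short-lived newly formed stage marked by Enpp6, Bcas1 and Tcf7l2, before they switch on late myelin genes such as Mog and Opalin. In mice, pregnancy and the hormone prolactin are known to raise the division of precursors in white matter of the forebrain.

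Myelin genes outside the rule went with the label. Mbp was detected in 99.8% and 100% of member nuclei in pregnant libraries and in 100% and 99.8% in non-pregnant ones, and Opalin, a protein of mature myelin, in 66.5% and 71.5% against 61.9% and 64.3%. Among genes with at least 50 CPM (UMIs per 1000000) in the members of every library, those with the highest ratio to all other nuclei outside the rule were Cldn14, Cyp2j12, 9630013A20Rik, Prima1, Sec14l5, Opalin, Galnt6, Mcam, Insc, Nipal4 and Ankub1. Cldn14, a tight junction protein, led with a ratio of 277. One of these genes, 9630013A20Rik, is on the list of the newly formed stage used below, so the members were not all late in maturation. Of the precursor gene Cspg4, a UMI was seen in 0.855% and 0.763% of members of pregnant libraries and in 1.63% and 2.64% of those of non-pregnant ones. The astrocyte gene Gfap was seen in at most 0.220% of members of any library. The threshold of the rule cut few nuclei. Marker sums of 6 or 7, just outside, were held by 3 and 5 nuclei of the pregnant and 0 and 3 of the non-pregnant libraries that met all other conditions, and sums of 8 or 9, just inside, by 3 and 3 against 3 and 4. A further 443 nuclei had a marker sum of at least 8 but too many UMIs of the other genes, 379 of them of neuron genes, and were not members.

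Member nuclei numbered 468 and 393 in the pregnant libraries and 491 and 454 in the non-pregnant ones. That was 7.14% (95% Wilson interval 6.54 to 7.79) and 5.88% (5.34 to 6.47) of nuclei, against 7.17% (6.59 to 7.81) and 7.25% (6.63 to 7.92). Pregnant replicate 2 lay below the other 3 libraries, which overlapped. The means were 6.51% ± 0.892 and 7.21% ± 0.0544 (SD, n = 2 each; two-sided exact permutation p = 0.333, the smallest that 2 against 2 libraries can give). Of nuclei with at most 1 UMI of the 3 neuron genes, members were 25.7% and 20.0% in pregnant and 31.1% and 33.5% in non-pregnant libraries. The base of this share differed too, with 1820 and 1961 such nuclei against 1578 and 1356. Astrocyte nuclei numbered 221 and 198 against 119 and 136. The share thus depends on the number of other nuclei as well as on that of members. Intervals cover counting error only. A member held 3527.5 and 3672 UMIs at the median in pregnant libraries and 3288 and 4271 in non-pregnant ones, well under the depth of all other nuclei (15168 and 14231.5 against 13819.5 and 18519). Non-pregnant replicate 2 was the deepest. No member barcode was present in more than 1 library, while 101 of all kept barcodes were.

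A few member nuclei stood apart by neuronal RNA. A list of 10 genes that neurons of any type use (Snap25, Syt1, Rbfox3, Rbfox1, Snhg11, Meg3, Kcnip4, Nrg3, Dlgap1 and Celf2) took over 1% of UMIs in 9 and 10 members of the pregnant and 4 and 3 of the non-pregnant libraries, 26 nuclei in all. These neuron-rich nuclei were deep, with medians of 19753 and 16472.5 UMIs against 19044 and 28998, and they held 10.2% and 8.52% of all member UMIs in pregnant libraries but 4.12% and 3.11% in non-pregnant ones. A gap separated them from the rest: the highest share among the others was 0.919% and 0.653% in pregnant and 0.790% and 0.614% in non-pregnant libraries, and the lowest among the neuron-rich was 2.88% and 1.78% against 3.31% and 2.39%. The other 1780 members are called neuron-light below. Their median share was also higher in pregnant libraries, at 0.184% and 0.180% against 0.125% and 0.102%, and in astrocyte nuclei of the same libraries it was 0.327% and 0.322% against 0.300% and 0.292%. The 1% limit was set after the data had been seen. No doublet caller was run, and whether the 26 nuclei held RNA of more than 1 cell was not tested.

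**Figure D1:**
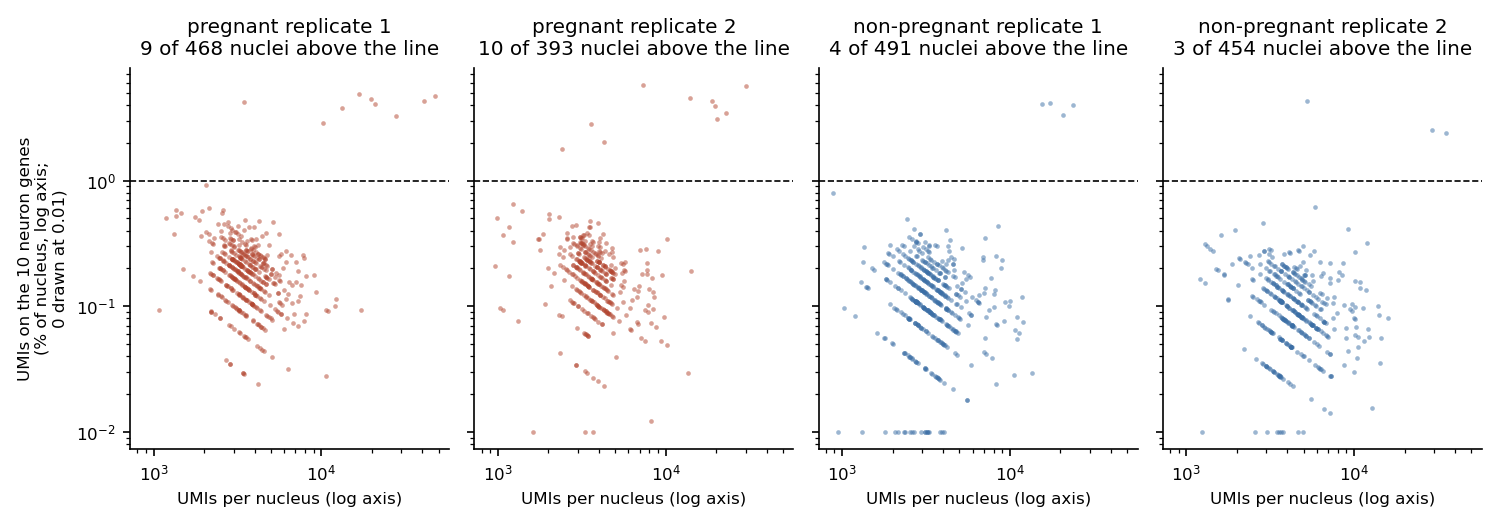
Share of UMIs on the 10 neuron genes (percent, log axis) against total UMIs (log axis) for each member nucleus, 1 panel per library, with pregnant libraries in red and non-pregnant ones in blue. Above the dashed line at 1% lie 9 and 10 nuclei of the pregnant and 4 and 3 of the non-pregnant libraries, most of them among the deepest.

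Raw UMIs were summed over the members of each library and tested in edgeR (quasi-likelihood F test), with p adjusted over all genes tested by the method of Benjamini and Hochberg and a call at adjusted p below 0.05. With all members, 172 of 10970 genes rose in pregnant libraries and 21 fell, 1.57% and 0.191% of genes tested and 1.76% together. Of the 172 genes that rose, 160 had a higher level in all other nuclei than in members, 139 of them at least 5 times higher, whereas 34.2% of all genes tested were higher in the other nuclei. Of the 21 that fell, 16 were higher in members. With the neuron-light members, 26 of 10584 genes rose (0.246%) and 10 fell (0.0945%), 0.34% together. Both fits shared 22 genes that rose and 6 that fell. Neuronal RNA was higher in pregnant libraries among the members, and calls with all members are followed below by the outcome with neuron-light ones. CPM are taken over a library's summed UMIs and scaled by TMM, the trimmed mean of M values. A log2 fold change (log2FC) is pregnant over non-pregnant.

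**Figure D2:**
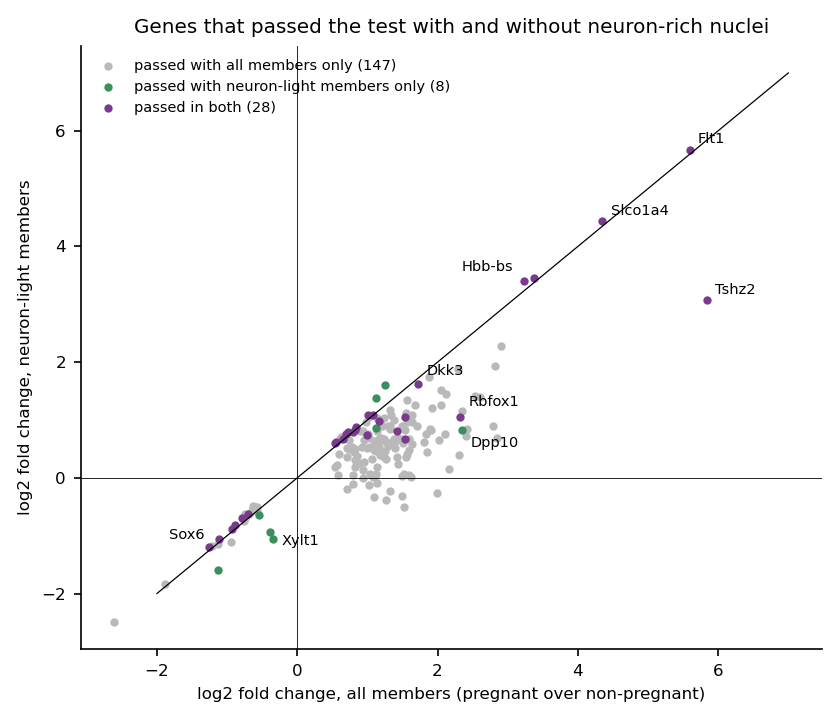
Log2FC with all members (horizontal) and with neuron-light members (vertical), each pregnant over non-pregnant, for genes that passed the test in either fit and were tested in both, with the line of equality. The 28 genes that passed in both lie near the line except Tshz2 and a few others below it, and most genes that passed with all members only lie between the line and 0. Flt1 and Slco1a4 rest on 1 and 3 UMIs in the non-pregnant libraries.

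Genes of the myelin sheath did not pass the test. None of the 14 tested structural myelin genes outside the rule was called in either fit, and their median log2FC was -0.14 with all members and -0.05 with neuron-light members, beside -0.0043 and -0.002 over all genes tested. Mbp, which holds the faces of the membrane together, had 5974 and 5924 CPM in pregnant and 6809.5 and 6836 CPM in non-pregnant libraries (log2FC -0.20, SE 0.144, edgeR adjusted p = 0.713). In neuron-light members the difference was -0.12 (SE 0.135, edgeR adjusted p = 0.908). Of 17 tested genes of axon contact and the paranode, where the sheath is anchored to the axon, none passed (median -0.20 and -0.15 in the 2 fits). Nfasc, the adhesion molecule of the paranode, had 1108 and 1081 CPM against 1282 and 1342 CPM (log2FC -0.26, SE 0.127, edgeR adjusted p = 0.481). None of 13 tested transcription factors of the lineage passed (median -0.17 and -0.10). Sox10, the lineage factor, had 309 and 326 CPM in pregnant and 327 and 383 CPM in non-pregnant libraries, and Myrf, which drives myelin genes, 114 and 114 CPM against 137 and 119.7 CPM. The pregnant values of both genes lay just below the non-pregnant ones, and neither gene passed. With so few libraries such an order is common without any difference between the groups.

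Genes of lipid supply and of support to axons did not pass either. None of 21 tested genes of cholesterol synthesis passed (median -0.12 and -0.07), and none of 22 of fatty acid and myelin lipid synthesis (-0.15 and -0.08). Ugt8a, the enzyme that makes galactosylceramide, had 741 and 681 CPM in pregnant and 808 and 971 CPM in non-pregnant libraries (log2FC -0.32, SE 0.133, edgeR adjusted p = 0.358). Srebf2, the regulator of cholesterol synthesis, had 103 and 103 CPM against 123 and 127 CPM (log2FC -0.28, SE 0.136, edgeR adjusted p = 0.481). Neither gene passed. The groups did not overlap for either, but with so few libraries that is common without any difference between the groups. Of 8 tested iron genes, among them Trf, the iron carrier transferrin, none passed (median -0.04 and -0.08). The same held for 17 genes of gap junctions, channels and metabolic support (median -0.11 and -0.05), such as Gjc3, a connexin, with 1110 and 1071 CPM against 1233 and 1123 CPM.

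Of the genes of the newly formed stage, 1 passed the test. Of 15 tested genes of newly formed oligodendrocytes, Enpp6 fell with all members and none passed with neuron-light members, and the median log2FC was -0.47 and -0.35. Enpp6, a choline phosphodiesterase that marks the stage, had 112 and 91.8 CPM in pregnant and 159 and 159 CPM in non-pregnant libraries (log2FC -0.64, SE 0.141, edgeR adjusted p = 0.0222). In neuron-light members it had 124 and 99.6 CPM against 166 and 159 CPM, and the difference missed the threshold (log2FC -0.53, SE 0.140, edgeR adjusted p = 0.124). The groups did not overlap in either set, which with so few libraries adds no evidence beyond the test. Bcas1 (log2FC -0.41 with all and -0.33 with neuron-light members), Fyn (-0.47 and -0.43), Itpr2 (-0.57 and -0.40) and Tcf7l2 (-0.49 and -0.35) did not pass in either fit. 9630013A20Rik, a long RNA on this list, varied by library, with 697 and 393 CPM against 883 and 519 CPM. Nuclei with at least 3 Enpp6 UMIs, described below, held 78.0% and 79.7% of its UMIs in neuron-light members of pregnant libraries. In non-pregnant ones they held 68.4% and 53.8%.

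A few genes that precursors use fell. Of 7 tested genes of the precursor list, Sox6 and Vcan fell with all members and Xylt1 in addition with neuron-light members, and the median log2FC was -0.85 and -0.93. Sox6, a transcription factor that holds precursors back from maturing, had 59.4 and 55.7 CPM in pregnant and 141 and 109 CPM in non-pregnant libraries (log2FC -1.11, SE 0.162, edgeR adjusted p = 6.29e-04). Vcan, the proteoglycan versican, had 23.8 and 18.9 CPM against 50.7 and 52.0 CPM (log2FC -1.26, SE 0.211, edgeR adjusted p = 0.00235). With neuron-light members the differences were -1.05 for Sox6 (SE 0.164, edgeR adjusted p = 0.00345) and -1.20 for Vcan (SE 0.208, edgeR adjusted p = 0.00921), and both passed when any 1 library was left out. In DESeq2 on neuron-light members Sox6 passed (DESeq2 adjusted p = 0.0330) and Vcan did not (DESeq2 adjusted p = 0.266). Neither gene passed the test in the precursors themselves. Sox6 had 2135 and 2102 CPM in the 68 and 57 precursor nuclei of pregnant libraries and 2192 and 2171 CPM in the 49 and 60 of non-pregnant ones, and the effect of pregnancy in neuron-light members differed from that in precursors by -1.01 for Sox6 (SE 0.204, edgeR adjusted p = 0.00781) and by -1.36 for Vcan (SE 0.246, edgeR adjusted p = 0.00159). Precursors here are nuclei with at least 2 UMIs of Pdgfra and few of the other genes of the rule.

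These transcripts sat in a small group of members. Nuclei with at least 3 Enpp6 UMIs numbered 22 and 20 in pregnant and 33 and 37 in non-pregnant libraries among the neuron-light members, 112 in all. They were 4.79% and 5.22% of those members against 6.78% and 8.20%. Over all members the shares were 4.70% and 5.09% against 6.72% and 8.59% (two-sided exact permutation p = 0.333, the smallest possible). These nuclei held few late myelin transcripts, with 29.5 and 57.6 CPM of Opalin against 23.8 and 15.9 CPM, where the other neuron-light members had 447 and 458 CPM against 422 and 418 CPM. They held 81 of 113 and 85 of 93 Sox6 UMIs in pregnant libraries and 254 of 264 and 220 of 226 in non-pregnant ones. Within them Sox6 was at 597 and 700 CPM in pregnant and 1211 and 876 CPM in non-pregnant libraries, and Vcan at 251 and 198 CPM against 419 and 390 CPM, here as plain CPM of these nuclei with no further scaling. The levels of both genes within these nuclei did not overlap between the groups and were lower in pregnant libraries. Both genes had been named for their fall in the same members. Of the precursor and newly formed lists, Tnr, Bcas1, Tcf7l2, Itpr2, Fyn and 9630013A20Rik overlapped between the groups there. Tnr had 5343 and 4271 CPM in these nuclei of pregnant and 5943 and 4099 CPM of non-pregnant libraries. Xylt1 and Lhfpl3 were lower in pregnant libraries without overlap. The number of these nuclei follows Enpp6, which chose them and was itself lower in pregnant libraries. Of Vcan they held 34 of 44 and 24 of 33 UMIs in pregnant libraries and 88 of 95 and 98 of 110 in non-pregnant ones. Without these nuclei the differences were 0.14 for Vcan (edgeR adjusted p = 0.971) and 1.43 for Sox6 (edgeR adjusted p = 0.520). The other neuron-light members had 19.7 and 5.64 CPM of Sox6 against 6.28 and 3.12 CPM. The sign of the Sox6 difference was thus turned there, with pregnant replicate 1 the highest, and it did not pass. A further 4 genes that fell in neuron-light members did not pass without these nuclei: Epb41l2 (-0.63 with and -0.14 without these nuclei), a scaffold of the membrane skeleton, Ptpro (-0.81 and 0.00), a receptor phosphatase, Cdk14 (-0.63 and -0.04), a kinase, and Grid1 (-0.94 and 0.01), a glutamate receptor of the delta type. Xylt1, which starts the sugar chains of proteoglycans, went the same way (-1.06 and -0.15). Depending on gene and library, these nuclei held 39.4% to 84.7% of the UMIs of Epb41l2, Ptpro, Cdk14, Grid1 and Xylt1. Taking the nuclei out thus removes much of the counts. Not passing there, for these genes and for Sox6 and Vcan, does not show that the other members do not differ between the groups. The limit of 3 UMIs was set after the data had been seen.

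**Figure D3:**
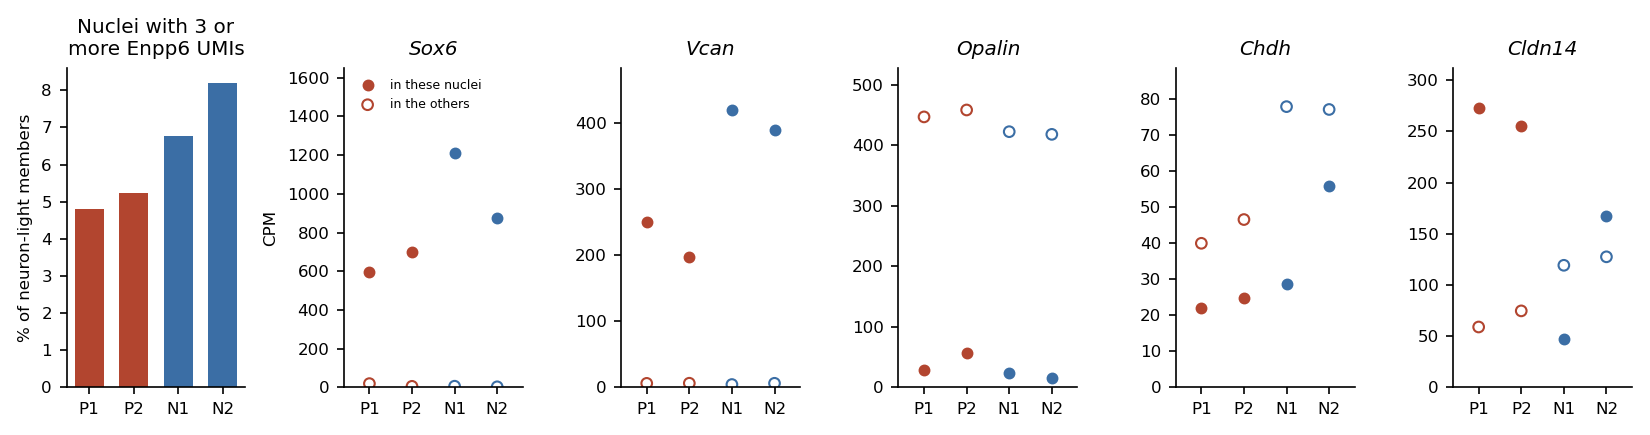
Left, share of neuron-light members with at least 3 Enpp6 UMIs in each library (P1 and P2 pregnant in red, N1 and N2 non-pregnant in blue, bars from 0). Right, CPM of 5 genes in these nuclei (filled) and in the other neuron-light members (open). Sox6 and Vcan are at 198 CPM or more in the filled points and below 20 CPM in the open ones, Opalin the other way round, and Chdh and Cldn14 differ between the groups in the open points.

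Chdh and Cldn14 were lower outside the nuclei of at least 3 Enpp6 UMIs as well. Chdh, a mitochondrial enzyme that turns choline into betaine, had 37.7 and 40.7 CPM in pregnant and 72.0 and 76.6 CPM in non-pregnant libraries (log2FC -0.92, SE 0.167, edgeR adjusted p = 0.00433). It passed with neuron-light members (-0.88, SE 0.168, edgeR adjusted p = 0.0259) and without the nuclei of at least 3 Enpp6 UMIs (-0.91, edgeR adjusted p = 0.0358). In DESeq2 on neuron-light members Chdh did not pass (DESeq2 adjusted p = 0.573). Chdh was seen in 62 and 60 neuron-light nuclei of pregnant and 98 and 119 of non-pregnant libraries, and when each member was thinned to 1000 UMIs, in 4.12% and 4.42% against 7.13% and 6.98% of members. It overlaps Cacna1d on the other strand. Cldn14, the tight junction gene that leads the members over all other nuclei, had 69.3 and 78.6 CPM against 107 and 141 CPM (log2FC -0.75, SE 0.161, edgeR adjusted p = 0.0190). It missed the threshold with neuron-light members (-0.63, SE 0.152, edgeR adjusted p = 0.0789) and passed without the nuclei of at least 3 Enpp6 UMIs (-0.96, edgeR adjusted p = 0.0155). In those nuclei it ran the other way, with 273 and 255 CPM in pregnant and 47.7 and 167 CPM in non-pregnant libraries. Adarb2, a protein related to RNA-editing enzymes and on the list of inhibitory neurons, fell with all (-0.79, SE 0.140, edgeR adjusted p = 0.00388) and with neuron-light members (-0.70, SE 0.140, edgeR adjusted p = 0.0356), but did not pass without the nuclei of at least 3 Enpp6 UMIs (-0.69, edgeR adjusted p = 0.126). Of the other named genes that fell with all members, Pdgfc, a growth factor of the platelet-derived family, had 37.2 and 36.2 CPM against 62.9 and 60.5 CPM (log2FC -0.75, edgeR adjusted p = 0.0310). Gfra1, a receptor for glial cell line-derived factor, had 84.3 and 83.8 CPM against 120.0 and 139 CPM (-0.63, edgeR adjusted p = 0.0276). Cacna2d4, a calcium channel subunit that overlaps Lrtm2 on the other strand, had 41.9 and 35.6 CPM against 62.4 and 69.0 CPM (-0.76, edgeR adjusted p = 0.0289). Abtb2, Arhgap24, Ltbp1 and Plod2 fell as well, with log2FC of -0.58, -0.59, -1.88 and -2.61. None of these 7 passed with neuron-light members, where adjusted p by edgeR lay between 0.0504 for Ltbp1 and 0.130 for Gfra1, with no change of sign.

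**Figure D4:**
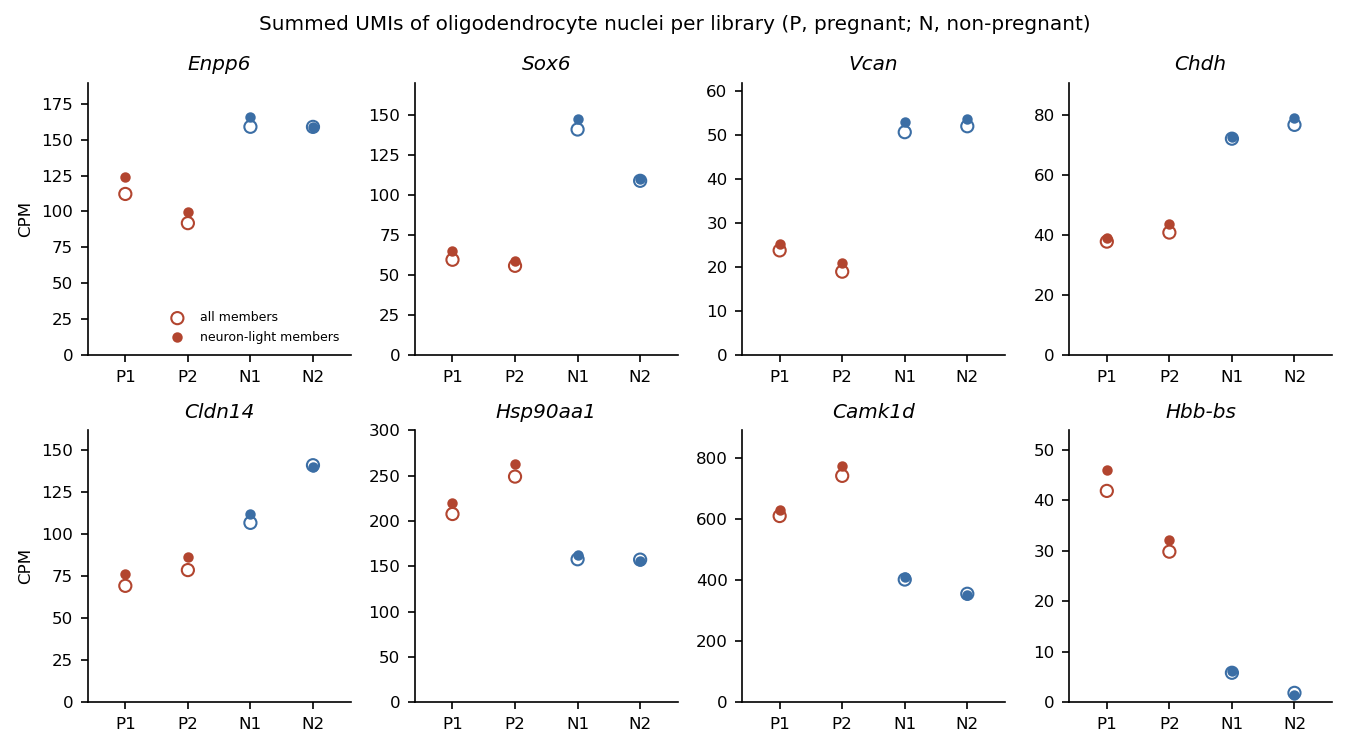
CPM of 8 genes in each library (P1 and P2 pregnant in red, N1 and N2 non-pregnant in blue) over all members (open) and neuron-light members (filled). Enpp6, Sox6, Vcan, Chdh and Cldn14 are lower and Hsp90aa1, Camk1d and Hbb-bs higher in both pregnant libraries, and the 2 kinds of point lie close together for all 8 genes.

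The genes that rose in neuron-light members were not myelin genes. Camk1d, a calcium-dependent kinase, had 630.3 and 776 CPM in neuron-light members of pregnant and 411 and 352 CPM of non-pregnant libraries (log2FC 0.88, SE 0.131, edgeR adjusted p = 0.00261). On the same nuclei Lars2, the mitochondrial leucyl-tRNA synthetase, had 228 and 243 CPM against 158 and 121 CPM (0.76, SE 0.138, edgeR adjusted p = 0.0153). Cmss1, which overlaps Filip1l on the other strand, had 1261 and 1267 CPM against 915 and 740 CPM (0.61, SE 0.128, edgeR adjusted p = 0.0459). Sparcl1, a matrix protein that astrocytes and neurons release, had 133 and 136 CPM against 78.7 and 49.2 CPM (1.08, SE 0.174, edgeR adjusted p = 0.00486). Of 11 tested heat shock and unfolded protein genes, the chaperone Hsp90aa1 rose in both fits, with 220.4 and 263 CPM in neuron-light members of pregnant and 163 and 155 CPM of non-pregnant libraries (0.60, SE 0.129, edgeR adjusted p = 0.0459). Hsp90ab1, its close relative, rose with all members (0.63, SE 0.153, edgeR adjusted p = 0.0471) and missed the threshold with neuron-light members (0.70, SE 0.151, edgeR adjusted p = 0.0538). The median log2FC of this list was 0.33 and 0.41. Mitochondrial RNA, which is not made in the nucleus, also rose in neuron-light members: mt-Co1 had 33.3 and 46.7 CPM against 11.7 and 18.5 CPM (1.38, SE 0.275, edgeR adjusted p = 0.0356), and mt-Cytb 21.2 and 26.5 CPM against 5.58 and 9.75 CPM (1.60, SE 0.348, edgeR adjusted p = 0.0463). The means of mt-Co1 in all other nuclei were 18.3 CPM in pregnant and 8.92 CPM in non-pregnant libraries. In DESeq2 on neuron-light members Camk1d, Sparcl1 and Cmss1 passed. Lars2 (DESeq2 adjusted p = 0.0981), Hsp90aa1 (0.430), mt-Co1 (0.358) and mt-Cytb (0.752) did not.

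For part of these genes the effect could not be told from that in the rest of the cortex. The effect of pregnancy in neuron-light members was tested against that in all other nuclei, as an interaction with each animal its own block. Over all genes 624 differed in this way with all members (3.1% of those tested) and 250 with neuron-light members (1.25%). Of the 26 genes that rose, 13 passed this test of a larger rise in members and 13 did not. These genes, and those that fell, were chosen by their calls in the same members, which favours passing. Their counts here and below can therefore not be set against the share over all genes. Camk1d passed (difference 0.66, SE 0.133, edgeR adjusted p = 3.01e-04). Hsp90aa1 (0.06, SE 0.144, edgeR adjusted p = 1.00), Cmss1 (0.23, SE 0.130, edgeR adjusted p = 0.741) and Lars2 (0.38, SE 0.145, edgeR adjusted p = 0.279) did not. Of the 9 named genes that fell, 7 passed: Sox6, Vcan, Xylt1, Grid1, Ptpro, Cdk14 and Adarb2, with differences of -1.25, -1.43, -1.23, -1.24, -0.81, -0.63 and -0.63. Chdh (-0.82, SE 0.292, edgeR adjusted p = 0.196) and Epb41l2 (-0.23, SE 0.146, edgeR adjusted p = 0.834) did not pass. Chdh was at 2.25 CPM in pregnant and 2.39 CPM in non-pregnant libraries in all other nuclei, on the mean. Against astrocytes, 59 genes differed with all members (0.486%) and 31 with neuron-light members (0.263%): 2 of the 26 genes that rose passed, Sparcl1 with a larger rise in members and Kcnip4 with a smaller one, and of the 9 that fell Sox6 and Vcan passed. Against precursors, 91 genes differed with all members (0.835%) and 14 with neuron-light members (0.13%), Tshz2, Rbfox1, Sox6 and Vcan among them. Norad, a long RNA that was higher in all other nuclei of pregnant libraries (log2FC 1.22, SE 0.103, edgeR adjusted p = 0.00160), had 46.5 and 54.5 CPM in members of pregnant and 35.7 and 36.4 CPM of non-pregnant libraries and did not pass (0.48, SE 0.187, edgeR adjusted p = 0.313).

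The leading genes that rose with all members were neuronal. Of the 10 genes of the neuron list, 6 rose (Rbfox1, Nrg3, Kcnip4, Meg3, Snhg11 and Syt1) and the median log2FC was 1.06. Without the neuron-rich nuclei Rbfox1, Kcnip4 and Meg3 still rose and the median was 0.64, but those nuclei were chosen by these very genes. Rbfox1, a neuronal splicing factor, had 358 and 312 CPM in pregnant and 75.2 and 59.6 CPM in non-pregnant libraries (log2FC 2.32, SE 0.149, edgeR adjusted p = 6.63e-08). In neuron-light members it had 90.1 and 75.7 CPM against 39.1 and 40.4 CPM (1.06, SE 0.169, edgeR adjusted p = 0.00403), and in all other nuclei 4397 CPM against 4599 CPM on the mean. Tshz2, a zinc finger transcription factor of some cortical neurons, had the smallest p, with 118 and 118 CPM against 2.67 and 1.42 CPM (5.84, SE 0.271, edgeR adjusted p = 4.49e-10). Of its UMIs in members, 199 of 229 and 176 of 206 came from neuron-rich nuclei in pregnant libraries and 0 of 5 and 0 of 3 in non-pregnant ones. In neuron-light members Tshz2 had 17.2 and 18.9 CPM against 2.79 and 1.46 CPM (3.07, SE 0.470, edgeR adjusted p = 0.00322), and in all other nuclei 371 CPM against 60.4 CPM on the mean. Its rise in neuron-light members did not differ from that in all other nuclei by the test (0.46, SE 0.503, edgeR adjusted p = 0.950).

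The other genes of the 15 with the smallest p that rose with all members were Agbl4, Clstn2, Cntnap2, Frmpd4, Gabrg3, Grip1, Grm5, Grm8, Lrfn5, Nalf1, Nrg3, Tafa1 and Zfp385b, with log2FC between 1.42 for Grm5 and 2.85 for Gabrg3. In neuron-light members none of the 13 passed. Nalf1 lay at -0.51 there, and the other 12 between 0.15 for Grip1 and 0.90 for Grm8, with 0.69 for Gabrg3. Of 10 tested genes of excitatory neurons outside the rule, 2 rose with all members (median 0.63) and 1 with neuron-light ones (0.46), and of 7 of inhibitory neurons none rose and Adarb2 fell in both fits (median 0.44 and 0.49). Adarb2 was also high in precursors, with 2153 and 2207 CPM in pregnant and 2278 and 2979 CPM in non-pregnant libraries. In all other nuclei it had 506 and 551 CPM against 607 and 522 CPM. None of 6 astrocyte genes (median 0.13 and -0.04) and none of 6 microglia genes (-0.18 and -0.12) passed. Agbl4 shares its strand with Bend5 where they overlap. Of the growth factor and lysolipid receptors, 3 of 22 tested rose with all members, the neurotrophin receptors Ntrk2 (0.70, edgeR adjusted p = 0.0386, and 0.51 in neuron-light members) and Ntrk3 (1.68, edgeR adjusted p = 4.55e-04) and the semaphorin receptor subunit Plxna4 (1.18, edgeR adjusted p = 0.00539, and 0.95 in neuron-light members). None passed in neuron-light members, where Ntrk3 had 35.02 and 23.3 CPM against 10.6 and 13.6 CPM (1.26, SE 0.302, edgeR adjusted p = 0.0789). The serotonin receptor Htr2c followed the neuron-rich nuclei, which held 15 of 19 and 30 of 38 of its UMIs in pregnant and 0 of 4 and 0 of 1 in non-pregnant libraries. Dpp10, a potassium channel partner, and Grin2a, a glutamate receptor subunit, rose in neuron-light members (0.82 and 1.05), as did Dkk3, a secreted Wnt modulator (1.63), Gpm6a, Kalrn, Ndrg4, Nsf, Rgs7bp, Arl6ip1 and Tspyl4, by 0.68 to 1.08.

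RNA of blood and vessel cells was also higher among members of pregnant libraries. A UMI of any of 6 blood genes was found in 23.9% and 18.6% of members in pregnant and 6.11% and 3.96% in non-pregnant libraries. Hbb-bs, an adult beta globin, had 41.9 and 29.8 CPM against 5.87 and 1.89 CPM (log2FC 3.23, SE 0.397, edgeR adjusted p = 1.39e-04). At 1000 UMIs a nucleus, Hbb-bs was seen in 4.60% and 3.52% of members against 0.649% and 0.171%, and in 2.69% and 2.92% against 0.130% and 0.184% of astrocytes. Its rise in neuron-light members did not differ from that in all other nuclei by the test (0.35, SE 0.463, edgeR adjusted p = 0.962). The alpha globin Hba-a1 rose on 16 and 15 against 3 and 0 UMIs, and its split from a near-identical copy is uncertain. Of 8 endothelial genes, Flt1 (32 and 24 against 1 and 0 UMIs, in 3 and 4 against 1 and 0 neuron-light nuclei) and Slco1a4 (35 and 26 against 0 and 3 UMIs, in 5 and 1 against 0 and 3) rose in both fits, and fitted folds on such counts depend on the prior count. Endothelial UMIs came to 199 and 73 in members of pregnant and 12 and 11 of non-pregnant libraries, of which 147 and 61 against 3 and 2 came from the richest nucleus. None of 8 genes of mural cells and fibroblasts reached the test.

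Receptors for prolactin and oestrogen were near the limit of detection in members. Prlr, the prolactin receptor, had 6 and 3 UMIs in pregnant and 0 and 2 in non-pregnant libraries, and Esr1, an oestrogen receptor, 1 and 1 against 0 and 2. No UMI of Esr2, Gper1 or Vdr was seen in any member. The progesterone receptor Pgr had 11.4 and 9.18 CPM against 3.20 and 4.26 CPM and did not pass (log2FC 1.44, SE 0.460, edgeR adjusted p = 0.156), and only few neuron-light nuclei held it, 6 and 10 against 3 and 4. The glucocorticoid receptor Nr3c1 had 264 and 224 CPM against 240.0 and 250 CPM, and the insulin-like growth factor receptor Igf1r 272 and 253 CPM against 276 and 277 CPM, with overlap of the groups for the first and a difference of -0.08 (SE 0.123, edgeR adjusted p = 0.900) for the second. Of the 16 hormone receptor genes tested, Esrrg rose with all members (2.82, SE 0.447, edgeR adjusted p = 0.00185) and none passed with neuron-light members, where Esrrg lay at 1.93 (SE 0.651, edgeR adjusted p = 0.329).

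Genes that steroid hormones, light or stress can move varied between animals of a group. None of 13 tested glucocorticoid-induced genes passed. Sgk1, a kinase induced by glucocorticoids, had 214 and 162 CPM in pregnant and 304 and 61.5 CPM in non-pregnant libraries, and Klf9 had 134 and 122 CPM against 159 and 77.5 CPM in neuron-light members, so the non-pregnant pair spanned the pregnant pair for both. The immediate early gene Egr1 did the same, at 28.4 and 28.7 CPM against 36.8 and 6.15 CPM, and none of the 12 tested immediate early genes passed. Among 16 tested clock genes Hlf rose with all members (1.32, SE 0.277, edgeR adjusted p = 0.0154) and not with neuron-light members (0.90, SE 0.322, edgeR adjusted p = 0.379). None of 10 tested genes of interferon, antigen presentation and the disease-associated state passed. Medians of the 4 lists with all members were 0.09, 0.25, 0.17 and -0.24.

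Marker genes of known mature subtypes were compared as shares of members at equal depth, where 2 against 2 libraries cannot give an exact p below 0.333 and no difference could be called. Thinned to 1000 UMIs a nucleus, which left out 2 members each of pregnant replicate 2 and non-pregnant replicate 1, Il33, an alarmin of grey-matter oligodendrocytes, was seen in 40.7% and 40.1% of members in pregnant and 42.3% and 37.7% in non-pregnant libraries. In astrocytes it was seen in 10.5% and 11.1% against 8.70% and 6.88%. Ptgds, prostaglandin D synthase, was seen in 33.4% and 38.7% of members against 34.4% and 27.2%, and Opalin in 31.3% and 32.6% against 28.8% and 28.4%. Groups overlapped for the first 2 genes and not for Opalin (two-sided exact permutation p = 1.00, 0.667 and 0.333). Klk6 and S100b, which mark a subtype of white matter and spinal cord, were rare, at 0.0472% and 0.179% against 0.0589% and 0.150% for Klk6 and 1.11% and 1.70% against 2.32% and 1.24% for S100b, and S100b was seen in 5.03% and 4.98% against 5.92% and 6.00% of astrocytes. Enpp6 was seen in 5.99% and 6.21% against 7.65% and 8.07% of members (two-sided exact permutation p = 0.333). Without thinning the shares were 69.7% and 71.0% against 69.5% and 71.6% for Il33 and 66.5% and 71.5% against 61.9% and 64.3% for Opalin. Of 8 tested genes of the MOL5/6 type, the most common mature class in mouse cortex, none passed (median -0.11 and -0.07). Of 6 tested genes of the MOL2 type, another mature class, none passed with all members, and Dpp10 was the 1 of 5 that rose with neuron-light members (median 0.60 and 0.66). Dpp10 had means of 173 CPM against 97.6 CPM there and 10143 CPM against 7969 CPM in all other nuclei. It did not pass in DESeq2 (DESeq2 adjusted p = 0.145) or in the interaction against all other nuclei (edgeR adjusted p = 0.269).

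**Figure D5:**
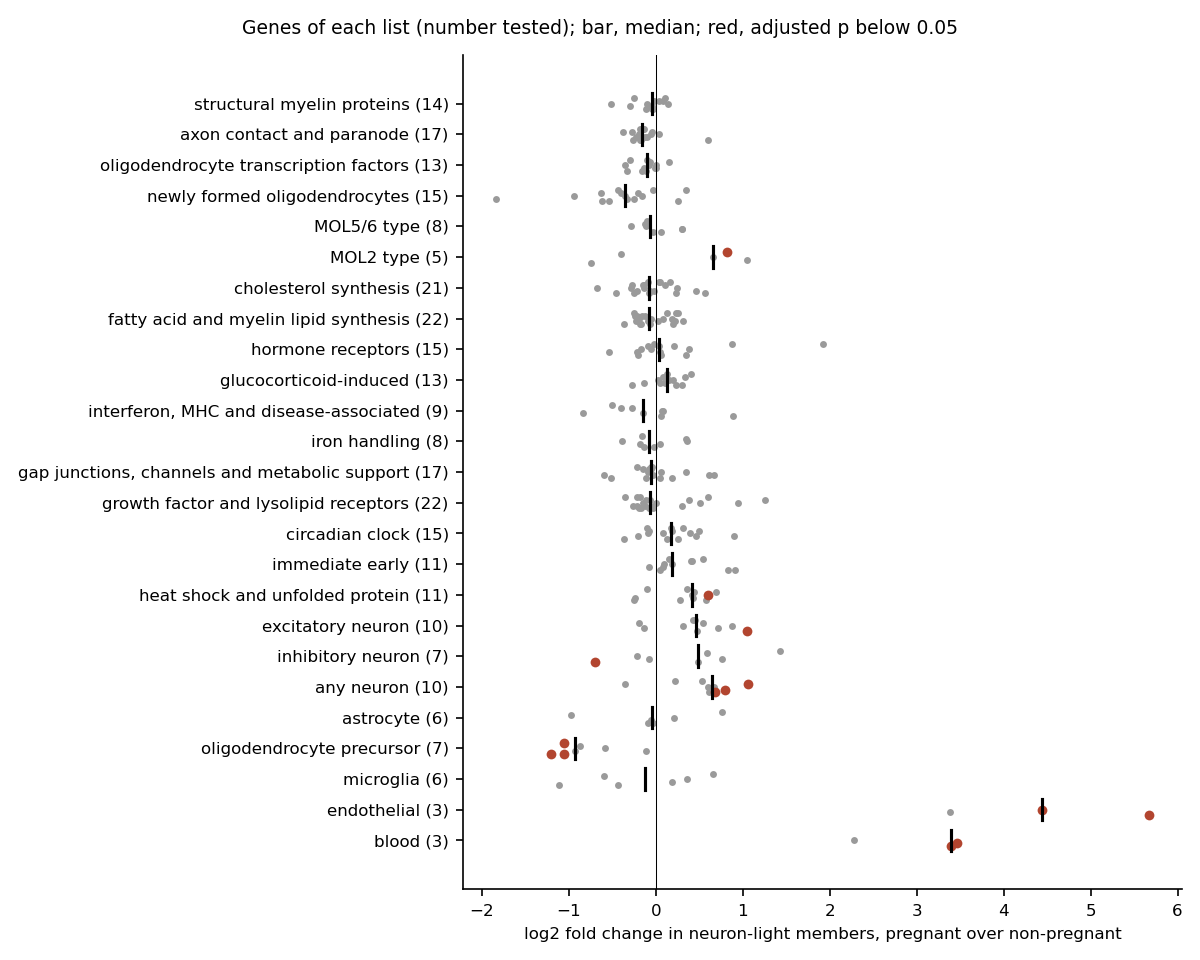
Log2FC (pregnant over non-pregnant) in neuron-light members for the tested genes of each list outside the rule (points, red where edgeR's adjusted p is below 0.05), with the median (bar). Lists of myelin, axon contact, lipid and channel genes lie close to 0, the precursor list lies below 0 with 3 genes called, and the neuron, blood and endothelial lists lie above.

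Of the 36 genes called in neuron-light members, 12 also passed when each library was left out in turn: Camk1d, Tshz2, Kcnip4, Sparcl1, Flt1, Slco1a4, Hbb-bs, Dkk3, Lars2 and Rbfox1, which rose, and Sox6 and Vcan, which fell. Without pregnant replicate 1 the total was 97, without pregnant replicate 2 it was 32, without non-pregnant replicate 1 it was 203 and without non-pregnant replicate 2 it was 75. In DESeq2, 6 genes rose and 1 fell. Among the 12 genes that passed without each library, Kcnip4 and Rbfox1 are on the neuron list that chose the neuron-light members. Leaving out a library does not remove that choice. Flt1 and Slco1a4 rested on few nuclei. The richest nucleus held 147 of 199 endothelial UMIs in members of pregnant replicate 1 and 61 of 73 in those of pregnant replicate 2. How far Flt1 and Slco1a4 depend on such nuclei was not tested by leaving out libraries.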

How the data were processed

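The deposited matrices hold raw UMI counts per gene and barcode, made by the authors with Cell Ranger 10.0.0 on mouse build GRCm39, per the submitters' processing notes. The 4 libraries held 26816 barcodes and 423916014 UMIs for 33696 genes, with 6357 to 6932 barcodes each. The rule of 13 genes was applied to raw counts and members' UMIs were summed per library, 1683778 to 2242277 each. Sums were tested with edgeR 4.0.16 (robust quasi-likelihood fit, TMM, filterByExpr with a minimum count of 10, Benjamini-Hochberg, threshold 0.05), and differences between nuclei types by an interaction term, each animal being its own block. DESeq2 1.42.0 was an alternative. The fit was tested on data simulated from the sums over all members. It called 11 of 49 changes of 1.5-fold, 26 of 45 of 2-fold and 44 of 45 of 4-fold, with 6 false calls. A gene or list that did not pass can thus still differ by such small folds. Single values had exact permutation tests over libraries. Thinned shares are expected shares under sampling of UMIs without replacement. Matrices without empty droplets were used, so free RNA was not subtracted.

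The members and the 26 gene lists were chosen with earlier results of these data known. Named genes were up to 15 that rose and 15 that fell by smallest p among called genes without overlap of the groups, up to 6 members of each list, hormone receptors, Norad, Tshz2, Htr2c and Hbb-bs, 15 leading genes, and 5 in each direction per interaction. Genes called in neuron-light members were added after seeing the data. Predicted genes were counted and not named. Some genes are counted but not reported here by name. Overlaps of genes were read from an annotation of another build, by symbol and without coordinates. Astrocytes were nuclei with at least 8 UMIs of Slc1a3, Aqp4 and Gja1.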

Additional observations from a re-analysis of the deposited data

Results flagged for a closer look

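The effect of pregnancy on 25 genes differed between members and another class of nuclei by an interaction test, the 5 with the smallest p in each direction per class. They gave 30 differences, on the log2 scale, members minus the other class, and every one has an adjusted p by edgeR below 0.05. No explanation was tested.

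Against all other nuclei, the effect was larger in members for Rbfox1 by 2.40, Sgcz by 2.06, Gabrg3 by 2.69, Asic2 by 2.14 and Dpp10 by 1.95. With neuron-light members Rbfox1 passed (1.11) and the other 4 did not. It was lower in members for Parm1 (-1.36), Sox6 (-1.28), Ust (-1.02), Gramd3 (-1.09) and Plekhg1 (-0.95), and all 5 passed with neuron-light members, at -0.93 to -1.33. For Parm1, Gramd3 and Plekhg1 the log2FC was -0.23, -0.48 and -0.31 in members and 1.14, 0.62 and 0.66 in all other nuclei. For Sox6 and Ust it was -1.11 and -0.67 in members and 0.19 and 0.36 in all other nuclei.

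Against astrocytes, the differences were 2.40 for Grip1, 2.43 for Gabrg3, 1.76 for Tenm3, 2.25 for Ccdc85a and 2.38 for Egfem1, none of which passed with neuron-light members. They were -2.004 for Grm7, -1.67 for Gria4, -3.63 for Slc24a4, -1.01 for Sox6 and -1.27 for Lingo2, all of which passed there. For Grm7, Gria4 and Lingo2 the log2FC was -0.17, 0.05 and 0.40 in members and 1.83, 1.70 and 1.70 in astrocytes. For Sox6 it was -1.11 in members and -0.09 in astrocytes. Slc24a4 had 3 and 6 UMIs in all members of pregnant and 9 and 16 of non-pregnant libraries, and 0 and 0 against 5 and 8 in neuron-light members, so its fitted size depends on the prior count.

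Against precursors, the differences were 6.08 for Tshz2, 3.83 for Grm8, 2.23 for Rbfox1, 2.18 for Sgcz and 2.32 for Tafa1, and the first 3 passed with neuron-light members. They were -1.40 for Vcan, -1.07 for Sox6, -5.08 for Dock8, -1.91 for Ltbp1 and -1.68 for Pard3b, and all but Pard3b passed there. The fitted value of Dock8 rests on 13 and 4 UMIs in precursors of pregnant and 0 and 1 of non-pregnant libraries, so its size depends on the prior count.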

How the results depend on the processing

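Counts of called genes moved with most choices. With all members, 193 genes were called (172 higher and 21 lower in pregnant), against 453 (364 and 89) with no filter on low counts, 102 (99 and 3) in DESeq2 and 40 (33 and 7) without the 5% deepest members. Equal numbers of members per library gave 11 lower, and neuron-light members, chosen after seeing the data, 36 (26 and 10). Leaving out 1 library gave 91 to 454 in all, 78 to 379 higher and 13 to 75 lower: the total was 303 without pregnant replicate 2, 454 without non-pregnant replicate 1 and 91 without non-pregnant replicate 2. For neuron-light members the counts were 91 and 53 with no filter, 6 and 1 in DESeq2 and 13 and 2 with fewer than 3 Enpp6 UMIs, and leaving out 1 library gave 26 to 148 higher and 6 to 55 lower. Same-numbered libraries shared only a number (correlation of their deviations 0.0407 over 5485 genes), and a replicate block called 446 genes with all members (371 and 75) and, with neuron-light ones, 81 higher and 48 lower. Interactions against all other nuclei, 624, came to 250 with neuron-light members and 174 to 469 without 1 library. Against astrocytes, 59 became 145 with no filter, 31 with neuron-light members and 29 to 118 without 1 library, and against precursors 91 became 139, 14 and 57 to 167. The difference in the share of members, -0.704 percentage points of all nuclei, was -9.42 points of nuclei with at most 1 UMI of the neuron genes. Those nuclei were themselves more numerous in both pregnant libraries. The difference in the share of oligodendrocyte nuclei with a UMI of S100b at equal depth was -1.81 points without thinning. The share of oligodendrocyte nuclei with a UMI of Opalin at equal depth differed by 5.86 without thinning and 5.05 at 2000 UMIs, and the share of oligodendrocyte nuclei with a UMI of Enpp6 at equal depth by -3.27 and -2.69. Log2 differences that changed sign with fewer than 3 Enpp6 UMIs were Fyn 0.10, Gjc3 0.040, Grid1 0.0080, Ptpro 0.0012, Sox6 1.43, Vcan 0.14 and Nalf1 -0.38. Gjc3 was at 0.021 without the 5% deepest members, Nalf1 at -0.51 with neuron-light members and -0.50 with at most 2 endothelial UMIs besides, and Klf9 ranged from -0.34 to 0.69 as 1 library was left out. The causes were not tested. For the 90 named genes, 1115 alternative values kept direction and side of the threshold, 60 passed newly, 233 no longer passed and 11 changed sign. With 2 animals a group, animal, dissection and pregnancy cannot be told apart, and the exact test of a share cannot give a p below 0.333. Free RNA was not subtracted, and genes with a few UMIs are limited by depth.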
